A study of Mus musculus with 2 samples.

Results

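Thrombospondins are secreted matrix glycoproteins, and Cd47 is the cell-surface receptor that binds the C-terminal end of thrombospondin 1. The 6 genes described here are the 5 thrombospondins Thbs1, Thbs2, Thbs3, Thbs4 and Comp together with Cd47, out of 32285 features counted. They were taken by symbol, and Thbs1 was selected on its measured level, chosen by its higher value in endothelial cells of the Cept1 library in these same data. Its endothelial values are therefore a description, and no test is placed on them.

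Whole aorta, from the arch to the distal bifurcation, of male C57BL6 mice was profiled by droplet sequencing of single cells (10x Genomics 3′ v3), in which each captured transcript carries a unique molecular identifier (UMI) and is counted 1 time. The overexpression group was Cept1fl/fl Cre+, with Cre-ERT2 under the VE-cadherin promoter, a promoter of endothelial cells, and the control group was Cept1fl/fl Cre-. Both carried the floxed Cept1 allele, and the shared treatment protocol lists tamoxifen as 5 daily intraperitoneal injections of 1 mg and 5 days of recovery. The protocol gives an age of at least 8 weeks and the age label 6 to 8 weeks. Each group is 1 library, made from tissue of 3 mice per condition. The labels do not say whether that tissue was pooled or which cells the sorting step kept. Differences thus have no replicate check, no p-value is given, and every interval is an exact 95% interval that covers counting error only.

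Thbs1 and Thbs2 are trimers whose type 1 repeats bind Cd36 on endothelial cells and restrain the growth of new vessels. Thbs3, Thbs4 and Comp are pentamers without those repeats that assemble with collagens in matrix, tendon and cartilage. Cd47 is present on most cells, where its binding of thrombospondin 1 lowers nitric oxide and cyclic GMP signalling in vessels and its binding of Sirpa on phagocytes restrains engulfment.

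The stretches of 250 bases before the RefSeq start sites (GRCm38.p6) of Thbs2, Thbs3 and Cd47 are shown because Thbs2 and Thbs3 shared a fibroblast pattern in these data while Cd47 was found in every class. The set of promoter stretches used here held 4 of the 6 genes. Thbs1 and Comp were not in that set and are named only. Each is written 5′ to 3′ on the gene's own strand, with capitals marking matches, on either strand, to 5 motifs: the GC box GGGCGG, the TATA box TATAAA, the AP-1 site TGANTCA, the E box CACGTG and CCAAT.
Thbs2, chr17:14694263-14694512, minus strand: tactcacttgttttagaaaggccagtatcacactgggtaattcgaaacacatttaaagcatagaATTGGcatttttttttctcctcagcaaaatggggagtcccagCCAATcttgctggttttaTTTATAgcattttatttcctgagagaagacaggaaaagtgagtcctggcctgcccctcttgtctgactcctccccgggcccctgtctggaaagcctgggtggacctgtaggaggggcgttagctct
Thbs3, chr3:89214930-89215179, plus strand: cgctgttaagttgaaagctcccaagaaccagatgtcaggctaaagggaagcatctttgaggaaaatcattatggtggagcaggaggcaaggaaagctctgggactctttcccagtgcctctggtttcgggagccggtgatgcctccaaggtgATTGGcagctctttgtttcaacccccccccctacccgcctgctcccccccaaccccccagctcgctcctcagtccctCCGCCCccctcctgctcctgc
Cd47, chr16:49855404-49855653, plus strand: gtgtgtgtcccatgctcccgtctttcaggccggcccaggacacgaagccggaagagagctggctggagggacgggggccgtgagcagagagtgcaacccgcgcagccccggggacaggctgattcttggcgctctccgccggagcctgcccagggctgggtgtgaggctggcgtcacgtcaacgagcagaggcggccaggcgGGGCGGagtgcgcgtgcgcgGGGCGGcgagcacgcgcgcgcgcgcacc
Thbs2 had 1 TATA match and 2 CCAAT matches, with 46.8% G and C and 3 CpG dinucleotides. Thbs3 had 1 GC box and 1 CCAAT match, with 58.8% G and C and 6 CpG. The Cd47 stretch was the richest of these in CpG, with 30 of them, 73.2% G and C and 2 GC boxes. It lies inside the Cd47 gene as GENCODE vM21 gives it (49800533 to 49915010), so the 2 annotations differ in where that gene starts. The Thbs4 stretch, which is not printed, had 19 CpG, 70.8% G and C, 3 GC boxes and no TATA or CCAAT match. Yet Thbs4 was also mostly a fibroblast gene here, with 92.1% and 68.1% of its UMIs in fibroblasts of the Cept1 and control libraries. Across 27025 promoter stretches of the same length, the median was 52% G and C and 6 CpG. The GC box was in 32.9% of them, the TATA box in 13% and CCAAT in 34.5%. AP-1 and E box letters, in 6.87% and 6.05% of all stretches, were in none of the 3 windows shown.

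Depth was 95735360 UMIs in 17728 barcodes for the Cept1 library, against 88220524 in 14349 for the control. Filters left 10635 and 8546 cells, whose median depth was 6301 and 6685 UMIs; 74 barcode sequences occurred in both libraries (0.417% and 0.516% of each). Cells were assigned to classes by UMIs of fixed marker genes: a cell needed at least 3 markers of its class, and a detected share of them at least 0.3 above that of any other class. In this order of libraries, the gate held 975 and 480 blood endothelial cells, 201 and 99 lymphatic endothelial, 698 and 592 smooth muscle, 5321 and 3888 fibroblasts and 1644 and 760 macrophages. Levels are counts per 1000000 UMIs of the class in that library (CPM), and ratios are log2 of Cept1 over control. Cept1 itself, the targeted gene, was at 122.8 and 79.7 CPM in endothelial cells, a log2 ratio of 0.62 (0.46 to 0.79). Among these it was 0.66 in arterial, 0.97 in capillary and 0.20 in venous cells, and -0.08 in cells of no subtype. Elsewhere it was 0.13 in fibroblasts, 0.19 in macrophages, 0.30 in smooth muscle and 0.32 in lymphatic cells. It was 0.41 in T or NK cells, 0.86 (0.03 to 1.75) in monocytes, 0.05 in neutrophils and -0.11 in B cells. The labels do not say whether the 3′ tags cover the transgene.

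Thbs1 (ENSMUSG00000040152) lies on chromosome 2 at 118111876 to 118127133 on the plus strand (GRCm38, GENCODE vM21). In blood endothelial cells it was at 685 CPM (667 to 703) in the Cept1 library and 331 CPM (316 to 348) in the control library, from 5465 and 1688 UMIs. The log2 ratio was 1.05 (0.97 to 1.13). At least 1 Thbs1 UMI was seen in 50.7% and 32.7% of these cells. Of 12764 genes with at least 20 UMIs in endothelial cells, 1.76% had a higher ratio. For all such genes, 5.59% were past 1.5-fold higher and 7.31% past 1.5-fold lower, and of the 5 genes of the family measured there 1 was higher (Thbs1) and 3 were lower (Thbs2, Thbs3 and Comp).

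Most endothelial Thbs1 came from arterial cells, marked by Gkn3, Cytl1, Gja5, Bmx and Mecom, and these were a larger share of the endothelium in the Cept1 library: 577 of 975 cells (59.2%) against 198 of 480 (41.3%). Within arterial cells Thbs1 was at 979 CPM (952 to 1006) and 628 CPM (597 to 661), so the ratio there was smaller than in all endothelial cells, 0.64 (0.56 to 0.72). With arterial, capillary and venous cells weighted equally and cells of no subtype left out, the endothelial ratio was 0.72; with the latter given the same weight it was 0.76. Thbs1 was found in 72.6% (68.8 to 76.2) of arterial cells of the Cept1 library and 59.1% (51.9 to 66) of those of the control library. Cells with the gene held a median of 7 and 6 UMIs and a mean of 12 and 12.9; in the control library 5 cells held 27.6% of the UMIs, against 7.43% in the Cept1 library. The share of arterial cells with Thbs1 was thus higher in the Cept1 library, while median and mean per positive cell differed in direction. Median depth was lower in the Cept1 library (7752 against 9913 UMIs per arterial cell), and with each cell thinned to 2000 UMIs, which left out 12 and 8 cells, the shares were 54.3% and 40%. The ratio is near the 1.5-fold line and was just under it (0.58) with the stricter filter of 1000 genes and 5% mitochondrial UMIs. Among all genes measured in arterial cells, 6.14% were past it higher and 5.02% lower, and of the 3 family genes measured there Thbs1 was higher and Thbs3, on 16 and 12 UMIs, lower.

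**Figure D1:**
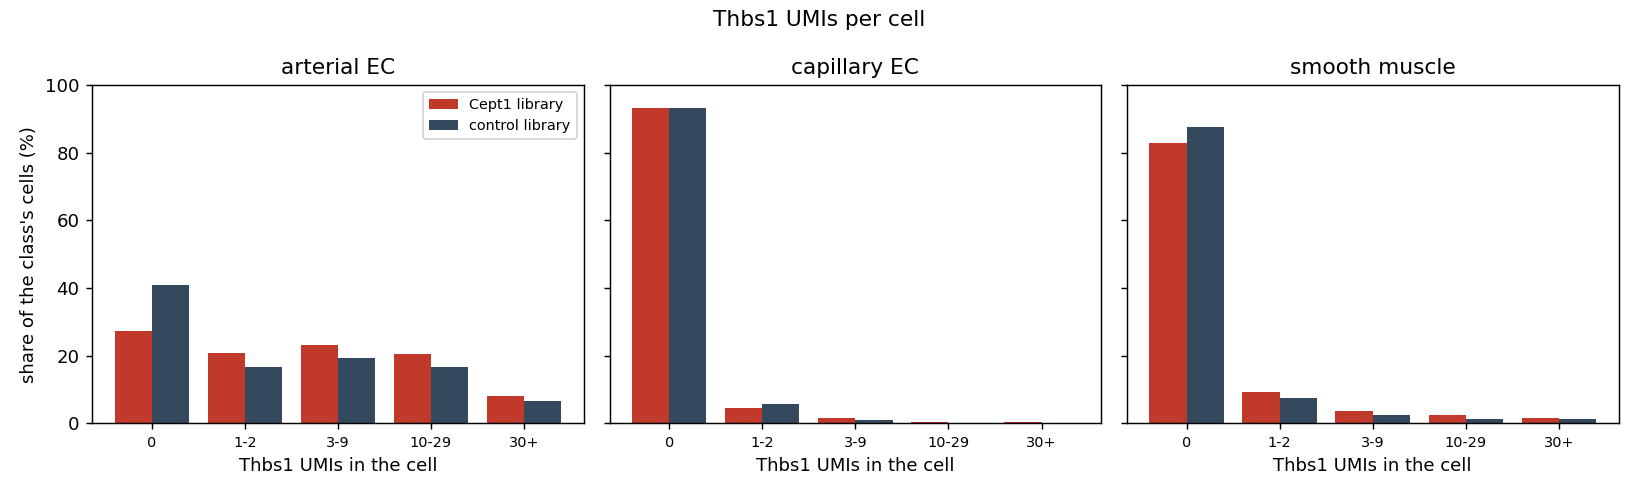
Share of cells (%, vertical axis) by the number of Thbs1 UMIs in the cell (horizontal axis, in ranges) in arterial endothelial, capillary endothelial and smooth muscle cells, with the Cept1 library in red and the control library in dark blue, 1 library each. In arterial cells 27.4% and 40.9% had none, and every range above 0 was more filled in the Cept1 library; in capillary cells 93.3% and 93% had none.

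Capillary endothelial cells, marked by Gpihbp1, Fabp4, Cd300lg, Btnl9 and Tcf15, had Thbs1 at 63.5 CPM and 13.6 CPM, from 103 and 22 UMIs, a ratio of 2.23 (1.55 to 2.96). The share of cells with the gene did not follow: 6.72% (18 of 268) and 6.95% (13 of 187). A single cell of the Cept1 library held 55 of the 103 UMIs, and its 5 highest cells held 83.5%. Without the 5 highest cells of each library the ratio was 1.09 (-0.20 to 2.51), and after thinning to 2000 UMIs per cell it was 0.11. T or NK cells, among the classes lowest in Thbs1 in both libraries, showed a UMI in 4.41% and 1.73% of cells. Their median depths were 6479 and 7481.5 UMIs, against 4814 and 6747 UMIs in capillary cells. The capillary share in the Cept1 library lies within the counting interval of the T or NK share (2.13 to 7.95%). That in the control library (3.75 to 11.6%) lies above the T or NK share (0.833 to 3.16%). Whether UMIs in either class came from other cells was not tested. The Thbs1 level in T or NK cells was also higher in the Cept1 library, 8.20 and 2.29 CPM, a ratio of 1.84 on 13 and 11 UMIs. Of all genes measured in T or NK cells 14% were past 1.5-fold higher and 7.25% lower. Among all genes in capillary cells 6.73% were past 1.5-fold higher and 9.42% lower, and of 3 family genes measured Thbs1 was higher and Comp lower (10 and 26 UMIs).

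Venous cells numbered 49 and 37 and gave Thbs1 at 87.9 CPM (59.8 to 124.8) and 42.3 CPM (22.5 to 72.3), from 31 and 13 UMIs, a ratio of 1.06 (0.08 to 2.11). With so few UMIs 14.5% of all genes measured in venous cells were past 1.5-fold higher and 11.1% lower; Thbs1 was the 1 family gene of 3 past the line. In lymphatic endothelial cells it was at 109.9 and 79.6 CPM, a ratio of 0.47 (0.12 to 0.82), with 44.8% and 40.4% of cells positive. The endothelial cells that fitted no subtype (81 and 58) had 347 and 187 CPM.

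The gate left out cells that carried markers of more than 1 class. Among these, 297 and 165 cells were led by endothelial markers, with Thbs1 at 1298 and 359 CPM, and smooth muscle markers came second in 172 and 40 of them. Gated endothelial cells held 45.1% and 25% of all Thbs1 UMIs of kept cells. With the margin between classes lowered from 0.3 to 0.1, the arterial ratio was 0.80 and the endothelial 1.17.

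Markers of other cells in the gated endothelium were read beside these values. Summed platelet markers, from cells that carry thrombospondin 1 protein in their granules, were at 30.5 and 11.2 CPM, in 11.4% and 7.71% of endothelial cells; without those cells the Thbs1 ratio was 1.06. Macrophage markers were at 68.9 and 41 CPM and smooth muscle markers at 516 and 347 CPM, and their part in the result was not tested. Adipocyte markers were at 130 and 115.8 CPM, and without the cells holding them the endothelial ratio was 0.92 and the capillary ratio 1.30 (0.34 to 2.35). Fos, an immediate early gene that cell dissociation induces, was present in 461 of 975 and 210 of 480 cells. It was in 48.5% and 26.3% of arterial cells but 40.7% and 52.9% of capillary cells. Arterial cells were thus 280 of the 461 and 52 of the 210 cells with Fos. The Thbs1 ratio was 1.67 (1.54 to 1.80) in cells with a Fos UMI and 0.54 (0.44 to 0.64) in those without one, groups that differ in subtype mix. Within arterial cells the same split gave 0.78 and 0.52. Within capillary cells it gave 2.83 (2.03 to 3.73) on 89 and 15 UMIs, and 0.64 (-0.77 to 2.19) on 14 and 7 UMIs. The part of dissociation in the ratio was not tested.

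**Figure D2:**
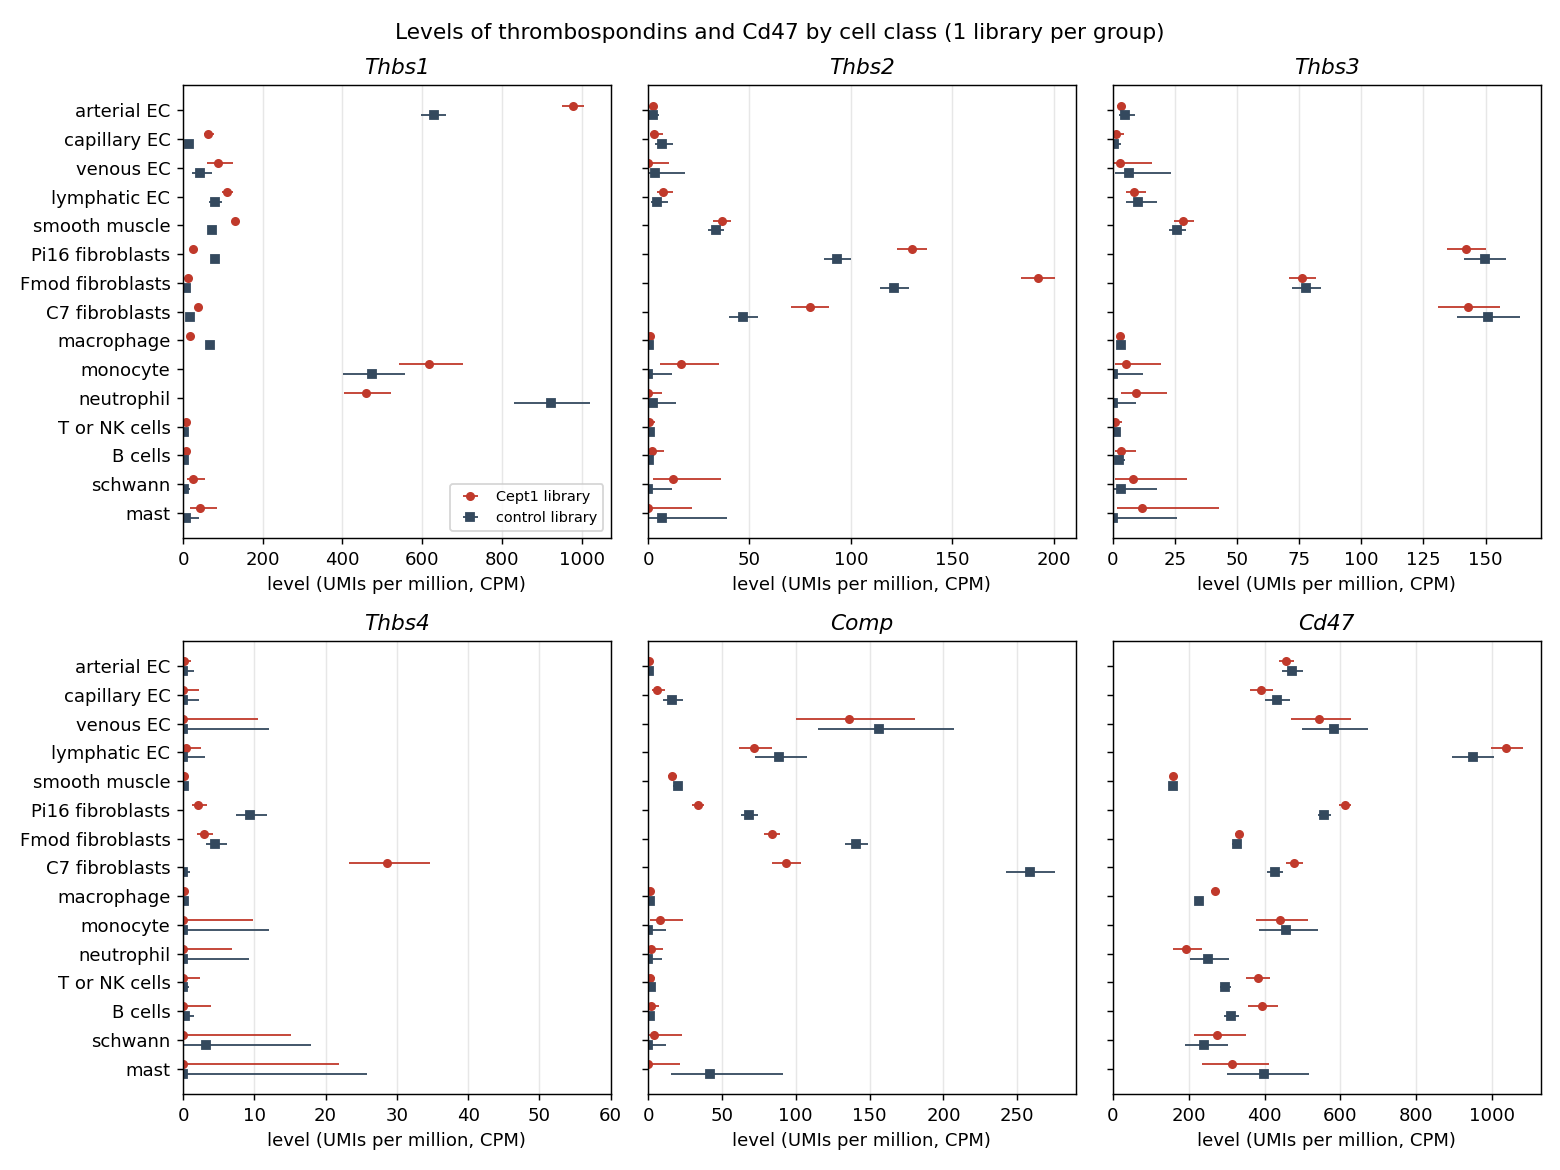
Level of each gene (CPM, horizontal axis, a scale per panel) in 15 cell classes (vertical axis; EC, endothelial cells), red circles for the Cept1 library and dark blue squares for the control library, with exact 95% Poisson intervals. Thbs1 was led by arterial cells, monocytes and neutrophils, Thbs2 and Thbs3 by fibroblasts, Comp by fibroblasts, venous and lymphatic cells, while Cd47 was above 150 CPM in every class.

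Outside the endothelium, Thbs1 was also higher in smooth muscle cells of the Cept1 library, at 129.8 CPM (121.8 to 138.2) against 72.1 CPM (66.6 to 77.8), a ratio of 0.85 (0.70 to 0.99). It was found in 17% and 12.5% of these cells. Platelet markers were at 30.1 and 12.2 CPM in them. Thbs1 was the 1 family gene of 5 measured in smooth muscle that was past 1.5-fold, beside 5.89% of all genes higher and 5.62% lower. It was under that line with classes from clustering (0.51) and with the margin of 0.1 (0.49), and at 1.32 without the 5 highest cells of each library.

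In the control library the highest Thbs1 level was in neutrophils (923 CPM, 831 to 1022), then arterial cells (628) and monocytes (474). In the Cept1 library the order was arterial cells (979), monocytes (618) and neutrophils (460, 404 to 521), and no neighbours in these orders overlapped in their counting intervals. Neutrophils, 121 and 65 cells, thus had the opposite ratio, -1.01 (-1.24 to -0.77), and 29.8% and 36.9% of them were positive. Of all genes measured in neutrophils 21.3% were past 1.5-fold lower. Platelet markers in them were at 197 and 7.54 CPM and erythroid markers at 386 and 13231 CPM, and their part in the result was not tested. Monocytes, 36 and 27 cells, had a ratio of 0.38 (0.08 to 0.69) on 231 and 145 UMIs; the 5 highest control cells held 134 of the 145. Without the 5 highest cells of each library the monocyte ratio was 3.02 (2.13 to 4.06), and 14.5% of all genes measured in monocytes were past 1.5-fold higher.

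Macrophages had Thbs1 at 18.5 CPM in the Cept1 library and 68.4 CPM in the control library, a ratio of -1.88 (-2.10 to -1.67), but 5.72% and 5.13% of them had a UMI. In the control library 5 of 760 macrophages held 449 of the 576 UMIs, 1 of them with 128. Without the 5 highest cells of each library the ratio was -0.39 (-0.73 to -0.05). All genes in macrophages were past 1.5-fold higher in 6.9% of cases and lower in 6.3%, and of 4 family genes measured Thbs1 alone was past it, lower.

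Fibroblasts of the set marked by Pi16, Gfpt2 and Dpp4 showed the same form: 23.7 and 79.2 CPM, a ratio of -1.74 (-1.97 to -1.52), with 7.78% and 8.20% of cells positive and 1 control cell of 179 UMIs. Without the 5 highest cells their ratio was -0.82 (-1.13 to -0.51). In the Fmod, Rbp4 and Ccn5 set and the C7, Penk and Bmper set the values were higher in the Cept1 library, 11.6 against 6.66 CPM and 36.2 against 17.2 CPM. Neither kept its direction throughout: the first was -0.41 with the margin of 0.1 and the second -0.74 when classes came from clustering.

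**Figure D3:**
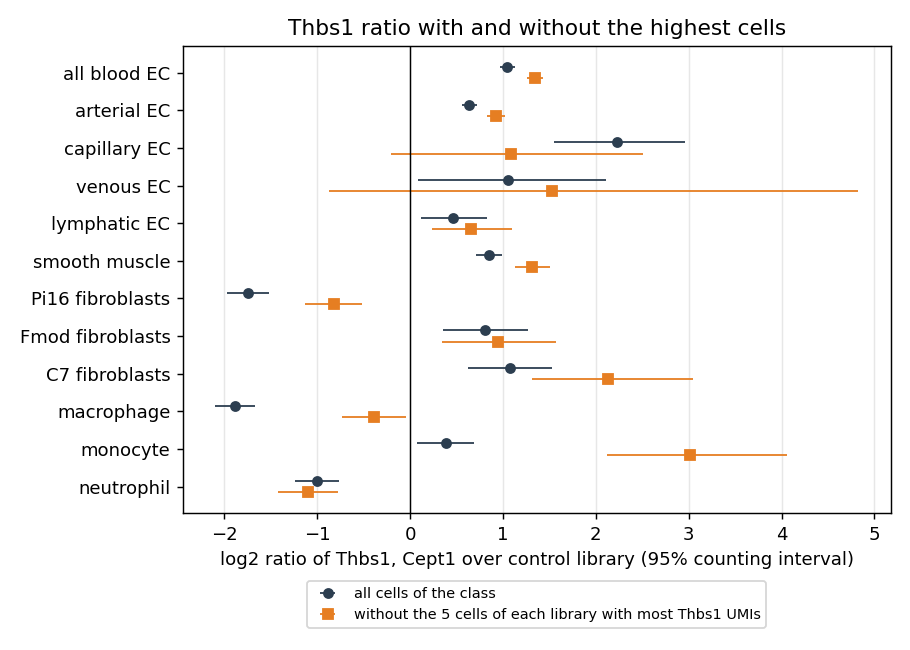
Log2 ratio of Thbs1, Cept1 over control library (horizontal axis), by class (vertical axis) for all cells (dark circles) and without the 5 cells of each library with the most Thbs1 UMIs (orange squares), with exact 95% counting intervals. The arterial value went from 0.64 to 0.92 and the macrophage value from -1.88 to -0.39; removing 5 cells takes a larger share of the smaller control classes.

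Thbs2 (ENSMUSG00000023885, chromosome 17, 14665500 to 14694235, minus strand) was a fibroblast gene here: fibroblasts held 88.5% and 79.7% of its UMIs. It was at 136.2 CPM (132.2 to 140.4) and 97.3 CPM (93.8 to 100.9) in all fibroblasts, a ratio of 0.49 (0.42 to 0.55), with 26.8% and 24.2% of cells positive. All 3 fibroblast sets had more of it in the Cept1 library: the Fmod set 192 against 121 CPM, a ratio of 0.66 (0.56 to 0.77); the Pi16 set 130.1 against 93.1 CPM, 0.48 (0.35 to 0.61); the C7 set 79.6 against 46.8 CPM, 0.77 (0.49 to 1.05). The order of the sets was the same in both libraries, Fmod above Pi16 above C7, with intervals that did not overlap. Across the alternative settings the fibroblast ratio lay between 0.46 and 0.59, under 1.5-fold in all but 1: it was just past that line with cells thinned to 2000 UMIs. Smooth muscle cells had 36.4 and 33.5 CPM, 0.12 (-0.12 to 0.36). Endothelial cells had 20 and 26 UMIs in all, a ratio of -1.03 (-1.94 to -0.13), with 1.95% and 4.17% of cells positive; without the 5 highest cells the interval was -1.93 to 0.39.

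Thbs3 (ENSMUSG00000028047, chromosome 3, 89215180 to 89226837, plus strand) shared the fibroblast pattern, with a smaller difference between libraries that went the other way. It was at 112.2 and 124.9 CPM in fibroblasts, a ratio of -0.15 (-0.22 to -0.09), with 37.1% and 42.8% of cells positive. The C7 set (143 and 150.8 CPM) and the Pi16 set (142.3 and 149.7) did not differ beyond their intervals from each other, and both were above the Fmod set (76.2 and 77.7), which led for Thbs2. Ratios within the 3 sets lay between -0.08 and -0.03 and each interval included 0. The value of all fibroblasts, -0.15, also takes in fibroblasts of no set, which were not read on their own. Smooth muscle had 28.4 and 26 CPM, and the endothelium 26 UMIs in each library. Thbs3 overlaps Mtx1 on the other strand, a gene with 1674 and 1624 UMIs, and whether counting used strand is not stated in the labels.

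Thbs4 (ENSMUSG00000021702, chromosome 13, 92751590 to 92794818, minus strand), best known in tendon and muscle, was found in 31 of 5321 fibroblasts (0.583%) and 19 of 3888 (0.489%), yet these few held up to 77 UMIs each. Its fibroblast level was 6.35 and 7.06 CPM, and the 5 highest cells held 70.4% and 73.2% of the UMIs. The C7 set had 104 UMIs in 4 cells of the Cept1 library and 0 UMIs in 422 cells of the control library, which allows up to 0.821 CPM (3 UMIs). The Pi16 set went the other way, with 19 and 78 UMIs, and 51 of the 78 were in 1 cell. Of the cells with Thbs4, 4 of 31 and 4 of 19 also had Comp, which was in 10.8% and 18.2% of all fibroblasts. Thbs2, in 26.8% and 24.2% of all fibroblasts, was in 18 of 31 and 16 of 19 of them. Endothelial cells had 1 UMI in each library.

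Comp (ENSMUSG00000031849, chromosome 8, 70373558 to 70382066, plus strand), cartilage oligomeric matrix protein, was the family gene past 1.5-fold lower in all fibroblasts of the Cept1 library. Its levels were 77.8 CPM (74.7 to 80.9) against 153.2 CPM (148.8 to 157.8), a ratio of -0.98 (-1.05 to -0.91). It was found in 10.8% (10 to 11.7) and 18.2% (17 to 19.4) of the cells, and after thinning to 2000 UMIs in 6.68% and 11.7%. Each set was lower: the C7 set 93.3 against 259 CPM, -1.47 (-1.65 to -1.29); the Pi16 set 33.8 against 68.7 CPM, -1.02 (-1.23 to -0.82); the Fmod set 83.7 against 141 CPM, -0.75 (-0.88 to -0.63). Of the control library's C7 set, 5 cells held 41.6% of its UMIs, and without the 5 highest cells of each library the ratio was -1.15. Among all genes in fibroblasts 4.08% were past 1.5-fold higher and 6.89% lower, and of the 6 family genes measured Comp was the 1 past it, lower. The alternatives for Comp gave -1.14 to -0.75. Thbs1 (-0.50), Thbs3 (-0.15) and Thbs4 (-0.15) were also below 0 in all fibroblasts, inside the line. Thbs1 had 724 and 969 UMIs there, and 5 control cells held 426 of the 969.

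The endothelium had Comp in its venous and lymphatic cells. Venous cells were at 136.2 and 156 CPM, in 42.9% and 32.4% of cells, a ratio of -0.20 (-0.81 to 0.41), and lymphatic cells at 72 and 88.8 CPM, -0.30 (-0.67 to 0.06). Arterial cells had 4 and 1 UMIs. For all endothelial cells the levels were 15.7 and 38.7 CPM, a ratio of -1.30 (-1.64 to -0.97), but venous cells were a smaller share of the class in the Cept1 library (49 cells, 5.03%) than in the control library (37 cells, 7.71%). With arterial, capillary and venous cells weighted equally and cells of no subtype left out the ratio was -0.27, and with the latter given the same weight -0.62. The cells of no subtype gave 63 of 125 and 122 of 197 of these UMIs, a ratio of -1.14 (-1.60 to -0.69).

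**Figure D4:**
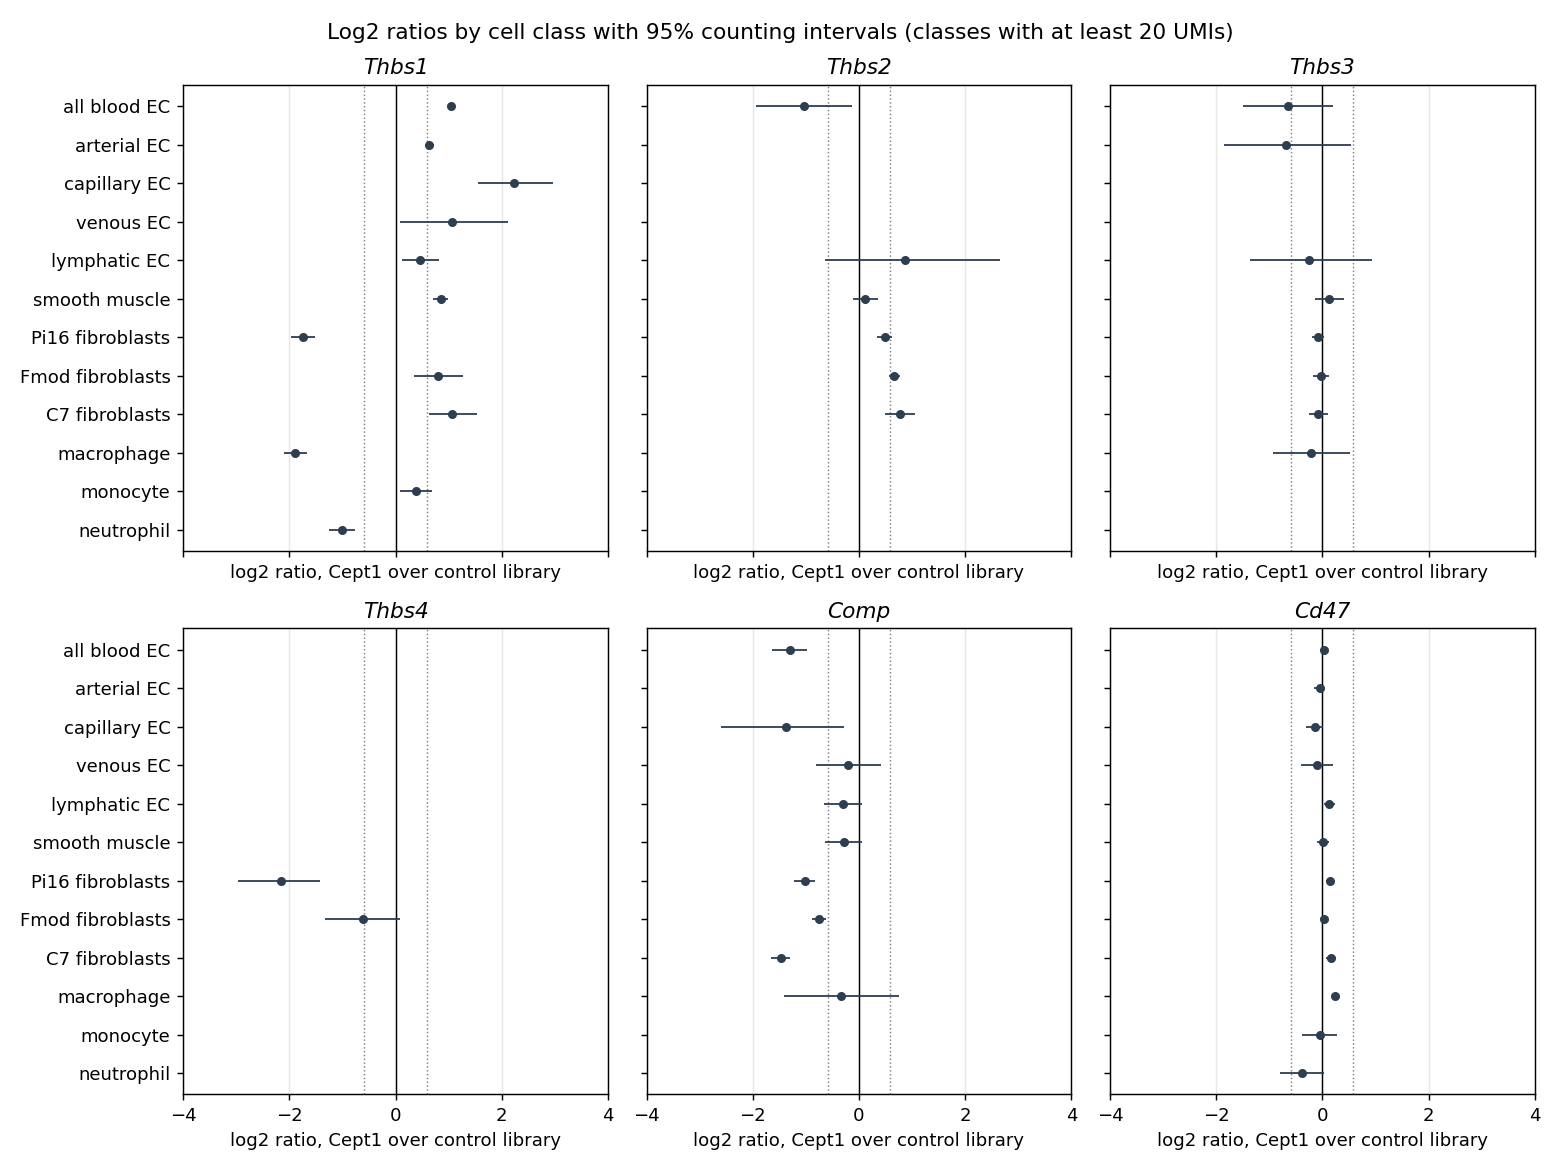
Log2 ratio, Cept1 over control library (horizontal axis), of each gene by class (vertical axis; EC, endothelial cells), with exact 95% counting intervals, for classes with at least 20 UMIs of the gene and a UMI in both libraries; dotted lines mark 1.5-fold. Thbs1 went past the line in both directions, Thbs2 was right of 0 and Comp left of it in all 3 fibroblast sets, and Cd47 stayed inside the lines in every class shown.

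Cd47 (ENSMUSG00000055447, chromosome 16, 49800533 to 49915010, plus strand), the receptor, was in every class and differed little between libraries. Endothelial cells had 475 CPM (460 to 490) and 466 CPM (448 to 485), a ratio of 0.03 (-0.05 to 0.10), with 87.5% and 88.8% of cells positive; arterial, capillary and venous ratios were -0.05, -0.14 and -0.10, each with an interval that included 0. The cells of no subtype stood apart, with 704 CPM (650 to 763) and 470.3 CPM (423 to 522), a ratio of 0.58 (0.39 to 0.78). Summed lymphatic markers in these cells were at 4299 and 1890 CPM, and their part in that ratio was not tested. Lymphatic endothelial cells had the highest level of all classes, 1039 CPM (997 to 1082) and 949 CPM (895 to 1006), with a UMI in all 201 and all 99 cells. The lowest was in smooth muscle, 158.9 and 157.3 CPM. Pi16 fibroblasts (613 and 558 CPM) and venous cells (545 and 582 CPM) came after the lymphatic cells and overlapped each other in each library. Among leukocytes the ratio differed in sign between classes. Higher in the Cept1 library were macrophages at 268 and 226 CPM, 0.25 (0.17 to 0.33), T or NK cells at 382 and 297 CPM, 0.37 (0.23 to 0.50), and B cells at 395 and 312 CPM, 0.34 (0.16 to 0.51), while neutrophils had 193 and 251 CPM, -0.38 (-0.79 to 0.03), mast cells 314 and 399 CPM, -0.34 (-0.91 to 0.22), and monocytes 442 and 458 CPM, -0.05 (-0.39 to 0.28). All were inside 1.5-fold.

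UMIs of Thbs1 and of its receptors were next read in the same cells. In arterial cells 67.8% and 54% held UMIs of both Thbs1 and Cd47, but 2.77% and 3.54% of both Thbs1 and Cd36, the scavenger receptor through which Thbs1 acts on microvascular cells. Capillary cells had Cd36 in 100% and 99.5% of cells and Thbs1 in 6.72% and 6.95%. Thbs1 and Cd36 were found together in 20.4% and 20.2% of lymphatic cells and in 16.3% and 18.9% of venous cells. Endothelial Cd36 was at 1507 and 1731 CPM, a ratio of -0.20 (-0.24 to -0.16). This pooled ratio was not corrected for the subtype mix. Cd36 was in 5.03% and 6.57% of arterial cells, and capillary cells were 27.5% and 39% of the endothelium.

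The other genes around the family were read from 5 lists by their ratio in endothelial cells, where the median of all 12764 genes was -0.01. Of 17 receptors and binding partners 15 were measured; 0 were past 1.5-fold higher and 3 lower, with a median of 0.06, beside 5.59% and 7.31% of all genes. In arterial cells 0 of 14 were past it in either direction (6.14% of all genes higher and 5.02% lower). In capillary cells 2 of 14 were higher and 0 lower (6.73% and 9.42% of all genes). The lower in the pooled endothelium were Notch3 (-1.44, -1.79 to -1.08), a receptor of mural cells, the calcium channel subunit Cacna2d1 (-0.84, 48 and 55 UMIs) and the very low density lipoprotein receptor Vldlr (-0.61). Ptprj, a phosphatase that binds Thbs1, was at 0.45 (0.39 to 0.52), the co-receptor Calr at -0.11 and Lrp1, which takes Thbs1 into cells, at 0.16 (-0.18 to 0.51). Of 15 genes of Cd47 partners and the nitric oxide branch 11 were measured, with 0 higher, 2 lower and a median of -0.25. Those lower were the guanylate cyclase subunit Gucy1a1 (-1.08, -1.42 to -0.74) and Qpctl (-0.62, -1.24 to 0.01), which modifies the Cd47 end that binds Sirpa. Prkg1, the cyclic GMP kinase, was at 0.55 (0.47 to 0.64), Bnip3 at -0.41 and Sirpa at 0.17 (-0.07 to 0.41). The median of this list was -0.15 in arterial, -0.08 in capillary and 0.16 in venous cells, and -0.01 in cells of no subtype. Each was above the pooled -0.25. In arterial cells 1 of 11 was higher and 1 lower (6.14% and 5.02% of all genes). Capillary cells had 0 of 11 higher and 1 lower (6.73% and 9.42%), and venous cells 1 of 7 higher and 0 lower (14.5% and 11.1%).

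Among genes of TGF beta activation and response, a pathway whose latent ligand Thbs1 can activate, all 13 were measured: 2 were past 1.5-fold higher and 0 lower. Of all genes in endothelial cells 5.59% were past it higher and 7.31% lower. The list median was 0.23 in endothelial cells and 0.31 in arterial cells. In arterial cells 4 were past it higher and 0 lower, beside 6.14% and 5.02% of all genes. Tgfb3 was at 10.8 and 5.5 CPM (0.97, 0.34 to 1.64) and the matricellular gene Ccn1 at 610.2 and 359 CPM (0.76, 0.69 to 0.84). The receptor Tgfbr1 was at 0.41 (0.17 to 0.65). In capillary cells the list had 0 higher and 3 lower of 11, with a median of -0.11, beside 6.73% and 9.42% of all genes. In endothelial cells 7 of 9 proteases that cut thrombospondins or Comp were measured. Of these 0 were past 1.5-fold higher and 2 lower, beside 5.59% and 7.31% of all genes. Those lower were Adamts7 (13 and 21 UMIs) and Adamts4 (-0.60, -1.14 to -0.06), while Mmp2 was at 0.48 and Adamts12 at 0.31. Arterial cells held 655 of 717 and 298 of 329 Mmp2 UMIs, with a ratio of 0.04 (-0.16 to 0.24). Adamts4 was at -1.21 in capillary and 1.92 in venous cells, the latter on 26 and 6 UMIs. In arterial cells 1 of 5 was higher and 0 lower (6.14% and 5.02% of all genes). In capillary cells 1 of 6 was higher and 2 lower (6.73% and 9.42%). Venous cells had 4 of 5 higher and 1 lower (14.5% and 11.1%).

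The list of transcription regulators of Thbs1 and immediate early genes had other counts in each subtype. In all endothelial cells 2 of 15 were past 1.5-fold higher and 6 lower (5.59% and 7.31% of all genes), with a median of -0.30. In arterial cells 4 were past it higher and 0 lower (6.14% and 5.02% of all genes), the median being 0.28, and in capillary cells 1 of 14 was higher and 6 lower (6.73% and 9.42% of all genes), with a median of -0.24. Venous cells had 3 of 13 higher and 0 lower (14.5% and 11.1% of all genes), and the cells of no subtype 0 of 14 higher and 7 lower (12.4% and 9.78%). Fos was at 0.28 in arterial and -1.68 in capillary cells, Fosb at 0.39 and -1.57, and Atf3 at 0.22 and -0.83. Myc was at 0.94 (0.49 to 1.41) in all endothelial cells and 1.52 in arterial cells. The difference between the subtypes was not tested.

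**Figure D5:**
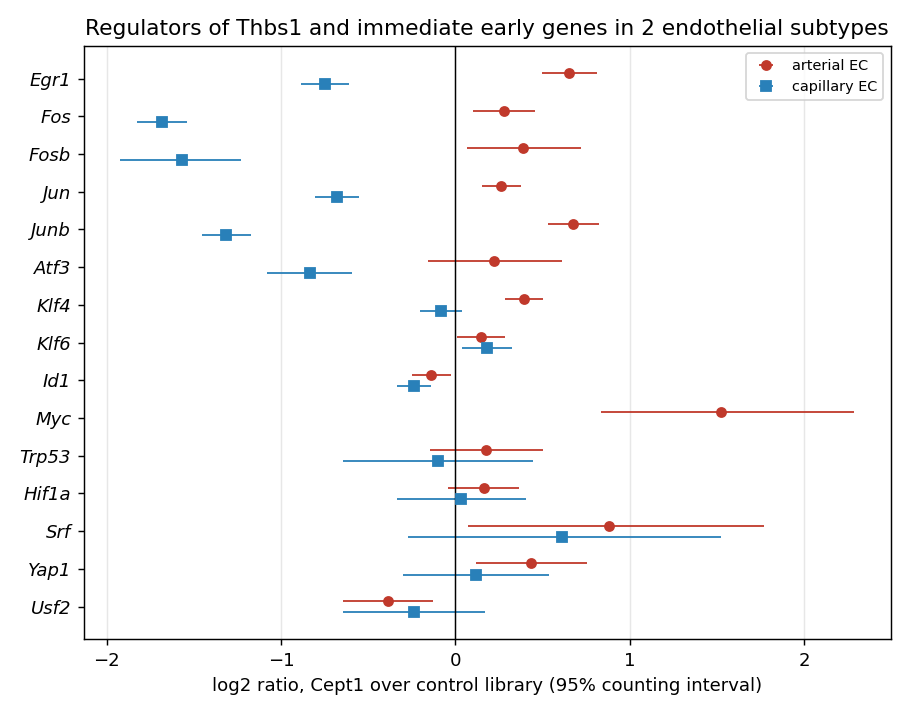
Log2 ratio, Cept1 over control library (horizontal axis), of 15 regulators of Thbs1 and immediate early genes (vertical axis) in arterial (red circles) and capillary (blue squares) endothelial cells, with exact 95% counting intervals. Fos was at 0.28 in arterial and -1.68 in capillary cells; Egr1, Fosb, Jun, Junb and Atf3 were likewise right of 0 in arterial and left of it in capillary cells.

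Genes whose levels resembled each member were ranked by Pearson's r of log2(CPM + 1) over 32 points, 16 classes and subtypes in each of 2 libraries, among 12173 genes. The points share libraries, and some classes are subtypes of the same cell type, so r is a description. Nearest to Thbs1 were Zyx (r = 0.82), Nos1ap (0.80), Prr5l, Bmx, itself an arterial marker of the gate, and Tspo (0.73). Thbs2 was nearest to Clec11a (0.90), C1qtnf2, Loxl1, Htra3 and Wnt5a, and Thbs3 to Col6a2 (0.89), C1qtnf7, Gm46323, Serping1 and Igdcc4. Thbs4 had Adgrg2, Col8a2, Dcn, Shisa3 and Clec3b, of which Dcn and Clec3b are fibroblast markers of the gate. Comp had Eda2r (0.88), Prelp, Foxp2, Enpp3 and Flrt2, and Cd47 had Il20rb (0.77), Ggct, Meox1, Nck1 and Prrt4. Among the members, Thbs2 and Thbs3 were most alike (0.80), and Thbs1 had r from -0.20 to 0.14 with the other 5.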

How the data were processed

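The values the authors deposited are unnormalized UMI counts for each gene in each barcode. Cell Ranger 7.2.0 made them, per the file headers. The mm10 build and Seurat are named in the submitters' processing notes, with no step given. Barcodes were kept from 500 genes upward and up to 10% of UMIs from mitochondrial genes (11168 and 8729). Scrublet in scanpy 1.11.5 (expected rate 8%, seed 1) by its own thresholds called 533 Cept1 cells and 0 control cells; the former threshold, used in both libraries after the scores were seen, removed 533 (4.77%) and 183 (2.10%) cells. Classes were gated on marker UMIs; subtypes needed a margin of 0.2, at least 3 markers for endothelial subtypes and 2 of the fibroblast markers. The margins were set on marker UMIs alone.

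UMIs were summed per class and library. With 1 library per group no test was possible; "past 1.5-fold" describes genes with at least 20 UMIs, in classes of at least 20 cells per library. Ratio intervals are Clopper-Pearson, level intervals Poisson and shares of cells binomial, all exact; the ratio calculation was tested on simulated data. Members, lists and markers were chosen with earlier results of these data known. Named from each list were the 4 genes with the largest absolute ratio in endothelial cells plus Cd36, Sirpa, Calr and Lrp1, and for each member the 5 most similar genes with at least 500 UMIs; 1 gene so named is not reported here. Fos, Fosb and Atf3 values by subtype, and Egr1, Jun and Junb in a caption, were added after their values were seen. Coordinates are from GENCODE vM21 (GRCm38).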

Additional observations from a re-analysis of the deposited data

Results flagged for a closer look

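Thbs1 was lower in the Cept1 library in 3 classes while it was higher in endothelial cells, where its log2 ratio was 1.05. The values were -1.88 in macrophages, -1.74 in fibroblasts of the Pi16 set and -1.01 in neutrophils. Each class is 1 library against 1, and the difference between classes was not tested. The neutrophil value was -1.09 without the 5 cells of each library with the most Thbs1 UMIs, and those of macrophages and Pi16 fibroblasts were -0.39 and -0.82.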

How the results depend on the processing

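No paired analysis was possible because each group is 1 library. Thbs1 was higher in the Cept1 library in endothelial, arterial, capillary and venous cells under every alternative that gave a value, with ranges of 0.72 to 1.35, 0.58 to 0.92, 0.11 to 2.56 and 0.50 to 2.48. The endothelial ratio was 1.27 with classes from clustering, 0.90 with a stricter cell filter (1000 genes, 5% mitochondrial UMIs), 1.17 with every cell weighted equally, thinned to 2000 UMIs or gated with a margin of 0.1, 0.92 without cells holding adipocyte markers, 1.35 without the 5 highest cells, 0.72 with the 3 named subtypes weighted equally and 0.76 with cells of no subtype weighted too. The arterial ratio was 0.90 with clustering, 0.73 thinned, 0.92 without the 5 highest cells and 0.80 with the margin of 0.1. The capillary ratio was 1.38 with cells weighted equally, 0.11 thinned, 1.30 without adipocyte markers and 1.09 without the 5 highest cells, and the venous ratio 2.48 with the stricter filter. In endothelial cells Cd47 was -0.22 thinned and -0.094 with subtypes weighted equally, which gave Comp -0.27, or -0.62 with cells of no subtype. The share of genes past 1.5-fold higher was 9.03% thinned, 2.49% with at least 100 UMIs and 10.01% among genes with a UMI in each library; the share lower was 3.55% and 16.8% under the last 2. Reversed were Comp in capillary cells (0.14) and Thbs1 in C7 fibroblasts (-0.74) with clustering, Thbs1 in Fmod fibroblasts (-0.41) with the margin of 0.1, Thbs4 in Fmod fibroblasts with 1 more marker (1.32) and without shared barcodes (0.53), and Thbs4 in Pi16 fibroblasts without the 5 highest cells (0.87). The causes were not tested. For the endothelial Thbs1 ratio, 6 of 15 alternative values lay within its counting interval and 9 outside it. A further 593 alternative values cover the other classes and, in the endothelial subtypes, genes other than Thbs1. Of these, 508 lay within the counting interval of the reported value and 558 kept their direction. Leaving out the 5 highest cells, the margin of 0.1, leaving out shared barcodes and the weight for cells of no subtype were chosen after seeing the data.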
